A study of Arabidopsis thaliana with 4 samples.

Results

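The genes described here are 121 Arabidopsis genes whose RNA was listed at least 2-fold higher in immunoprecipitates of the Polycomb protein CURLY LEAF (CLF) than in control immunoprecipitates. They were chosen from 14696 nuclear genes listed under their own TAIR10 identifier in all 4 libraries. The rule asked for a locus span of at least 300 bp, a value above 0 in all 4 libraries and a mean CLF RIP level of at least 2 FPKM (fragments per kilobase per M fragments). It also asked for a fold, taken as (mean CLF RIP FPKM + 1)/(mean control RIP FPKM + 1), of at least 2, and for both CLF RIP values to lie above both control values. The span left 13196 genes, the values above 0 left 3098, the level left 1574 and the fold left 128, of which 127 had groups that did not overlap. A further 6 genes that meet the rule were left out by it and are not counted: ELF4, ST2A, CYP94B3, ERF53, LTI30 and U2.6. All 4 libraries and this very contrast chose the genes, so their levels and folds are a description, and no test of them is given.

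RNA immunoprecipitation (RIP) pulls a protein down with an antibody and sequences the RNA that comes with it. The 2 control RIP libraries came from wild-type Col-0 plants, and the samples are described as random RNA. The 2 CLF RIP libraries came from clf-28 mutant plants carrying Myc-tagged CLF, a transgene that restores a normal appearance to the mutant. The plants of both groups were 3 weeks old, were grown on sucrose medium in long days and were crosslinked, and the same anti-Myc antibody was used on sonicated nuclei. The wild type carries no Myc tag, so the groups differ in genotype as well as in the bait. Whether the libraries within a group stem from separate plants is not said, so their spread can be technical. The table names and the sample labels assign the groups in opposite ways. The labels were used, and every direction below turns if they are wrong.

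CLF is a methyltransferase subunit of a Polycomb repressive complex, which marks histones at developmental genes and keeps them silent. Polycomb proteins are known to bind many RNAs in the nucleus, often with little preference for sequence. A RIP reports how much of an RNA came down with the bait, so its level in nuclei and its association with the bait both enter the value.

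As a background, 4.1% of the 3098 genes met the rule before the 6 were left out. The mirrored rule, 2-fold lower in the CLF RIP with a mean control level of at least 2 FPKM, was met by 93 genes, or 3%. Irrespective of fold, 1234 genes (39.8%) had both CLF RIP values above both control values. The median log2 difference, of FPKM + 1, was 1.20 for the 121 genes and 0.11 for all 3098. Among the 121 genes it ran from 1.00 to 3.36. By a fit that starts from what 1 read is worth, the depth behind the FPKM was estimated at 9.92 and 9.61 M fragments for the controls and 4.22 and 4.21 M for the CLF bait. Where values of a gene are set against each other below, the 2 control RIP values come first and the 2 CLF RIP values after them.

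Beside these counts stand values from the whole series. Of 5 leaf marker genes (RBCS1A, LHCB1.3, LHCB2.1, CA1 and RCA), LHCB2.1 and CA1 could not be matched to a locus. The other 3 were above 0 in all libraries and summed to 2455 and 2437 FPKM in the control RIP and to 896 and 892 FPKM in the CLF RIP. Of 4 flower markers, 3 (AG, AP3, PI) were above 0 throughout and summed to 19.1 and 36.0 FPKM against 5.85 and 9.12 FPKM. The other, SEP1, overlapped between groups, at 0 and 0.861 FPKM against 0.586 and 0.784 FPKM. With libraries rescaled on protein-coding genes, 2 of the 3 stayed below the control without overlap. None of 4 seed markers was above 0 in all libraries, and none exceeded 0.839 FPKM in any. Guard cell markers (FAMA, KAT1, MYB60) lay above the control in 3 of 3 cases, and in 2 of 3 under median-of-ratios scaling, where 40.7% of all matched genes did so as deposited. They summed to 23.1 and 18.16 FPKM against 28.6 and 44.0 FPKM. Of root markers, PHT1;1, NRT2.1 and TIP2;3 were at or near 0, and PYK10, SCR and SHR summed to 8.17 and 8.42 FPKM against 8.44 and 9.83 FPKM. The part of these shifts in the levels of the 121 genes was not tested. In immunoprecipitates from whole plants, the number of cells of a type, the RNA per cell and the recovery with the tagged bait cannot be told apart. CLF itself was listed at 25.9 and 27.1 FPKM in the controls and at 4.24 and 25.7 FPKM with the CLF bait.

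Most of the 121 genes sat close to the threshold. Of these, 82 had a fold from 2 to below 2.5, 24 from 2.5 to below 3, 11 from 3 to below 4, and 4 had a fold of 4 or more. Their levels were modest. The mean CLF RIP level was under 5 FPKM for 46 genes, from 5 to below 10 FPKM for 36, from 10 to below 20 FPKM for 20, from 20 to below 50 FPKM for 14 and at least 50 FPKM for 5. The median gene stood at 2.15 FPKM in the control RIP and 6.93 FPKM in the CLF RIP, where the medians of all 3098 genes were 1.76 and 2.06 FPKM. In the control RIP, 32 of the 121 genes were under 1 FPKM on average, so the added 1 in the fold takes up much of their difference.

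**Figure D1:**
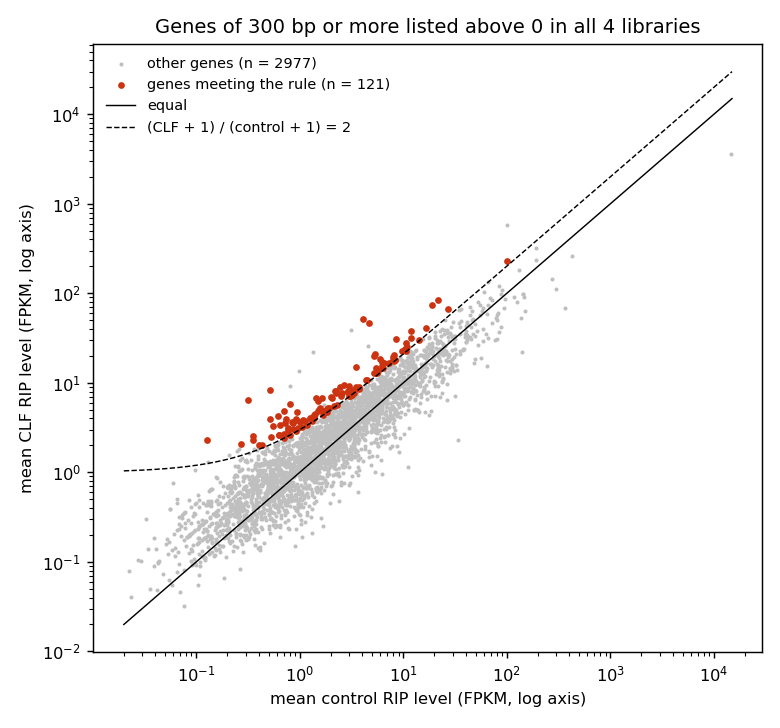
Mean control RIP level (x axis, FPKM, log scale) against mean CLF RIP level (y axis, FPKM, log scale) for 3098 genes of at least 300 bp listed above 0 in all 4 libraries, with the 121 genes in red and the fold of 2 as a dashed line. The red points follow the dashed line over most of the range, and AT5G23240 and AT3G43828 are the pair far above it near 4 to 5 FPKM in the control RIP.

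The libraries of a group lay close together for most of the 121 genes. The median distance between the CLF RIP libraries was 0.20 on the log2 scale, against 0.23 over all 3098 genes. Between the control RIP libraries it was 0.16, against 0.15. These distances are of FPKM + 1, and the sets compared were not matched for level. The CLF RIP values were within 1.1-fold of each other for 37 genes and within 1.5-fold for 101, and were over 2 times apart for 9. The farthest apart was AT4G12382, with 0.596 and 1.23 FPKM against 1.87 and 6.09 FPKM. AT1G51930 followed with 0.522 and 0.539 FPKM against 3.68 and 1.23 FPKM, and AT2G18420 with 1.40 and 0.289 FPKM against 1.97 and 5.27 FPKM. In AT4G12382 and AT2G18420 the first CLF RIP library was the lower one, and in AT1G51930 the second.

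The gene with the highest fold was AT5G23240, also named DJC76, which encodes a J-domain protein, a class of partners of heat shock protein chaperones. It lies on chromosome 5 from 7826732 to 7828724 and was listed at 4.04 and 4.14 FPKM in the controls and at 51.7 and 50.7 FPKM with the CLF bait, a fold of 10.3. Both libraries of each group were within a few percent of each other. A gap between the groups was required by the rule. A transcribed pseudogene, AT5G23235, covers 86.4% of its span. The strand used in counting is not stated, so reads of the gene and of its overlapping neighbour cannot be told apart.

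The next was AT3G43828, a pseudogene on chromosome 3 from 15677383 to 15678009. It was listed at 4.76 and 4.67 FPKM in the controls and at 46.4 and 46.0 FPKM with the CLF bait, a fold of 8.26. AT2G47950 followed on chromosome 2 from 19624210 to 19624809, with 0.509 and 0.526 FPKM in the control RIP and 7.77 and 8.99 FPKM in the CLF RIP. AT5G10625 lies on chromosome 5 from 3358787 to 3359781 and was listed at 0.507 and 0.131 FPKM in the controls and at 5.66 and 7.17 FPKM with the CLF bait. The last 2 are protein-coding genes with no gene name in the RefSeq table, and each was under 1 FPKM in both control libraries. These 4 genes are the only ones of the 121 with a fold of 4 or more.

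Of the 15 largest folds, 8 belong to genes without a name in that table. Among them AT5G62360 was the most abundant, at 22.7 and 20.7 FPKM in the controls and 82.4 and 86.5 FPKM with the CLF bait (fold 3.76). AT5G57640 stood at 0.787 and 0.812 FPKM against 6.16 and 5.56 FPKM, and AT1G12540 at 0.630 and 0.780 FPKM against 5.03 and 4.75 FPKM. In both, the libraries of a group lay close together. AT2G03505 and AT3G22415 were less even: the former went from 0.152 and 1.096 FPKM in the control RIP to 2.49 and 6.07 FPKM in the CLF RIP, and the latter from 1.72 and 1.18 FPKM to 4.04 and 9.45 FPKM.

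**Figure D2:**
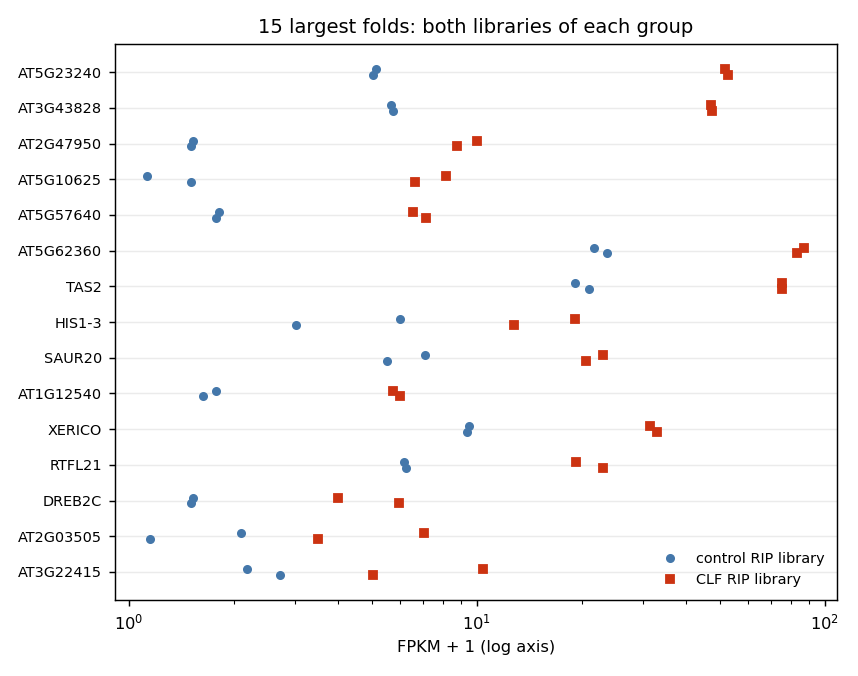
FPKM + 1 (x axis, log scale) in each of the 4 libraries for the 15 genes with the largest folds, with control RIP libraries as blue circles and CLF RIP libraries as red squares. In every row both squares lie to the right of both circles, as the rule required; HIS1-3, AT2G03505 and AT3G22415 show the widest spread within a group.

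Ranked by level, the leading gene was AT5G18130, at 97.4 and 103 FPKM in the controls and 226 and 237 FPKM with the CLF bait (fold 2.30). AT5G62360 and TAS2 came next, followed by AT5G56520 with 28.0 and 26.6 FPKM against 62.7 and 72.7 FPKM. AT5G23240 and AT3G43828, which lead in fold, followed in level. RLP32 and AT5G05250 were the next in level. AT5G05250 was listed at 11.4 and 12.6 FPKM in the controls and at 37.9 and 37.7 FPKM with the CLF bait, a fold of 2.99. Of these 8 most abundant genes, 4 were also among the 15 largest folds.

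RefSeq classes 104 of the 121 genes as protein-coding, or 86.0%, where the share was 89.2% among the 3098 genes and 92.0% among the 1453 other genes that reached the level of 2 FPKM. A gene name was found for 29 of the 104, and 75 carry only their identifier. These 75 had folds from 2.00 to 6.18 with a median of 2.26, and 55 of them lay below 2.5. Their mean CLF RIP levels ran from 2.03 to 232 FPKM with a median of 6.27 FPKM, where the median mean control level was 1.75 FPKM. The named genes were grouped by known role after their values were seen, and no count of a role is set against the rest of the genome.

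Abscisic acid is the hormone that accumulates in drying plants and closes stomata. XERICO encodes a small RING-type protein that raises abscisic acid levels when overproduced. It was listed at 8.38 and 8.50 FPKM in the controls and at 31.9 and 30.4 FPKM with the CLF bait, a fold of 3.41. NCED3, the dioxygenase that limits abscisic acid synthesis in drought, stood at 2.70 and 2.64 FPKM against 9.46 and 9.60 FPKM (fold 2.87). HIS1-3, a linker histone induced by drought, stood at 2.03 and 5.02 FPKM in the controls and at 11.8 and 18.1 FPKM with the CLF bait (fold 3.53). For XERICO and NCED3 the libraries of a group nearly coincided, whereas the control libraries of HIS1-3 were far apart relative to its level.

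A list of 23 abscisic acid and drought genes held 1 of the 121 genes, NCED3. Loci were here paired with genes by overlap too (at least 0.8 of both spans), since only 2 of the 23 carried their own identifier in all libraries. That gave 15011 genes listed above 0 in all 4 libraries, of which 11.9% were 2-fold higher by the same rule and 4.32% were 2-fold lower, with a median log2 difference of 0.24. Of the list, 19 genes were listed above 0 in all libraries, 7 were 2-fold higher and none was 2-fold lower, and the median log2 difference was 0.59. NCED3 is 1 of the 7 and was higher by the rule. The list genes farthest from 0 were DREB2A (8.88 and 9.12 FPKM against 25.6 and 68.6 FPKM), HAI2, a protein phosphatase of abscisic acid signalling (0.558 and 0.452 FPKM against 3.35 and 3.94 FPKM), and NCED3 itself. The list did not lie on one side throughout. Without overlap, 13 of the 19 lay above the control and 2 below, beside 40.7% and 17.9% of the 15011. The 2 below were RD22 (125 and 195 FPKM against 88.9 and 85.6 FPKM) and CYP707A3, whose enzyme breaks abscisic acid down (40.2 and 46.6 FPKM against 28.2 and 15.9 FPKM). Under median-of-ratios scaling 10 lay above and 3 below, and after rescaling on protein-coding genes 15 and 0. CYP707A1, the other listed gene of abscisic acid breakdown, was 2-fold higher, at 1.14 and 1.68 FPKM against 5.23 and 4.09 FPKM.

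Jasmonate is the wound and defence hormone, and CYP94B1 hydroxylates its active conjugate with isoleucine, a step of its turnover. CYP94B1 was listed at 1.29 and 2.03 FPKM in the controls and at 6.53 and 6.87 FPKM with the CLF bait, a fold of 2.89. It was the one member of an 11-gene list of jasmonate turnover. Of the list, 9 genes were listed above 0 in all 4 libraries, 4 were 2-fold higher and none was 2-fold lower, with a median log2 difference of 0.79 beside the 0.24 of all matched genes. The list genes farthest from 0 were ST2A, a sulfotransferase of hydroxylated jasmonate (2.70 and 3.63 FPKM against 39.0 and 39.1 FPKM), CYP94B3 (1.01 and 0.970 FPKM against 13.4 and 13.8 FPKM) and the jasmonate oxidase JOX3 (3.30 and 6.10 FPKM against 14.8 and 21.8 FPKM). The first 2 of these are among the genes that the rule leaves out. CYP94B1 and these 2 met the values of the rule, so their share in the count and in the median follows from the rule. Of the 4, only JOX3 was matched by overlap and could not enter the rule.

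The other lists held none of the 121 genes, and for 3 of them the rule itself removed a gene that met its values: ELF4 of the evening clock, LTI30 of the cold response and ERF53 of the rapid stress list. These 3 genes are counted as 2-fold higher below. The shares of all matched genes to set beside the counts are 11.9% 2-fold higher and 4.32% 2-fold lower. Among list genes above 0 in all libraries, 6 of 7 cold response genes, 4 of 6 evening clock genes, 3 of 9 jasmonate signalling genes, 1 of 6 jasmonate synthesis genes and 1 of 5 heat shock genes were 2-fold higher, and none of these 5 lists had a gene 2-fold lower. The full lists hold 18, 11, 16, 12 and 14 genes in that order, so the counts cover a part of each. Outside the heat shock list, the rest could not be matched to a locus and their values are unknown. Among 11 morning clock genes, 2 were 2-fold higher and 6 were 2-fold lower. Among 10 rapid stress transcription factor genes, 1 was higher and 2 were lower. None was 2-fold higher among 9 photosynthesis genes (7 lower), 13 Polycomb target genes (8 lower) and 14 Polycomb component genes (1 lower). From the morning clock on, the full lists hold 12, 14, 15, 20 and 16 genes. These counts are as deposited and depend on the scaling. The median log2 difference was -1.24 for the photosynthesis and -1.10 for the Polycomb target genes. With libraries rescaled on protein-coding genes it was -0.65 and -0.67, and under median-of-ratios scaling -1.45 and -1.29. Of the 148 genes in these 10 lists, 19 were listed under their own identifier in all 4 tables, and the others could not enter the rule.

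There were 6 transcription regulators among the named genes. DREB2C, of the family that binds dehydration-responsive elements, was listed at 0.509 and 0.526 FPKM in the controls and at 4.98 and 3.00 FPKM with the CLF bait (fold 3.29). AIF1, an atypical helix-loop-helix protein that restrains growth, stood at 2.93 and 3.03 FPKM against 9.58 and 8.70 FPKM. NF-YA2, a subunit of the factor that binds CCAAT boxes, stood at 1.99 and 2.13 FPKM against 7.27 and 6.17 FPKM. The remaining 3 had lower folds: NGA2, a B3 factor of leaf and pistil shape, 2.13, the ovate family repressor OFP5 2.102 and the stress-related factor NAC032 2.03. OFP5 lies wholly within the span of AT4G18840, with the limit on overlapping genes given above.

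Both other genes found by a DREB2 name, which carry serial numbers and could not enter the rule, had both CLF RIP values above both control values. Over all matched genes, 40.7% lay above the control in this way and 17.9% lay below it without overlap. DREB2A is given above, and DREB2B was listed at 2.03 and 1.97 FPKM in the controls and at 17.3 and 10.1 FPKM with the CLF bait. The NF-YA genes were uneven. Of 6 above 0 in all libraries, 2 lay above the control without overlap, NF-YA2 and NF-YA9, and NF-YA7 stood at 5.93 and 9.75 FPKM against 5.03 and 119 FPKM, so that 1 library set its mean. AIF2 stood at 16.0 and 13.0 FPKM against 30.7 and 30.6 FPKM, while AIF4 overlapped between groups at 24.7 and 24.1 FPKM against 28.2 and 22.5 FPKM.

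Auxin-related genes gave 5 of the named members. SAUR genes encode small proteins, many induced by auxin, and those of the SAUR19 group promote cell expansion. SAUR20 was listed at 4.52 and 6.10 FPKM in the controls and at 19.6 and 22.1 FPKM with the CLF bait, a fold of 3.46. SAUR19, 2777 bp away on chromosome 5, had the lowest fold of the 121, 2.00, at 3.32 and 3.08 FPKM against 7.79 and 7.03 FPKM. AT4G22620 (SAUR34) stood at 1.09 and 0.749 FPKM against 3.41 and 4.27 FPKM. AT2G28085 (SAUR42) stood at 2.38 and 0.352 FPKM against 3.20 and 5.61 FPKM, so its groups were separated by a narrow gap. Few reads lie behind both: SAUR34 rested on 3 and 2 control reads against 4 and 5 CLF RIP reads, and SAUR42 on 7 and 1 against 4 and 7. AUF1, an F-box protein of auxin transport, stood at 5.03 and 5.38 FPKM against 11.2 and 14.8 FPKM (fold 2.26).

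The SAUR19 group could be followed for 5 genes, of which SAUR19 and SAUR20 were chosen by the rule for being higher. Over all matched genes, 40.7% lay above the control and 17.9% below it without overlap at any fold. The other 3 genes of the group also lay above the control. SAUR21 (AT5G18030) stood at 8.77 and 13.9 FPKM against 19.8 and 23.0 FPKM, SAUR22 at 6.77 and 6.62 FPKM against 20.1 and 22.5 FPKM, and SAUR23 at 9.83 and 9.53 FPKM against 15.4 and 19.6 FPKM. These genes are close copies in 1 cluster, so reads may be shared among them and their values are uncertain. Of 37 other SAUR genes above 0 in all libraries, 10 lay above the control, 13 below and 14 overlapped, with a median log2 difference of -0.06. SAUR34 and SAUR42 are among the 10. With protein-coding genes only and libraries rescaled to the same sum, that median turned to 0.49, with 25 above and 4 below. Under median-of-ratios scaling it moved the other way, to -0.26, with 6 above and 18 below. The 5 genes of the SAUR19 group stayed above the control under both. Whether the group differs from the other SAUR genes was not tested.

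**Figure D3:**
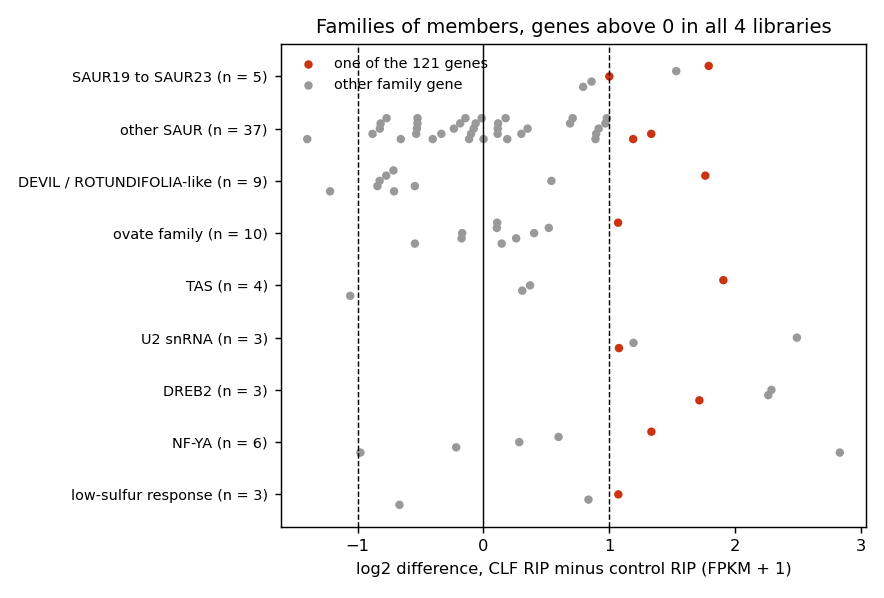
Log2 difference, CLF RIP minus control RIP, of FPKM + 1 (x axis) for the genes above 0 in all 4 libraries in 9 gene groups (rows, with the number of genes), with solid and dashed lines at 0 and at a fold of 2 either way. Red points are among the 121 genes and grey points are not, which includes U2.6, left out by the rule, and genes such as U2.3 without their own identifier in all tables; the SAUR19 group and the DREB2 and U2 rows lie wholly to the right of 0, whereas the DEVIL row lies to the left except for 2 genes.

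Small peptides and other development genes formed a further group of 3. RTFL21, also named DEVIL 3, belongs to a family of small peptides that limit organ growth when overproduced. It was listed at 5.25 and 5.19 FPKM in the controls and at 22.0 and 18.3 FPKM with the CLF bait, a fold of 3.40. Its family lay mostly on the other side: of 9 DEVIL genes above 0 in all libraries, 2 lay above the control and 7 below, beside 40.7% and 17.9% of all matched genes, with a median log2 difference of -0.71. With rescaling on protein-coding genes 3 stayed below without overlap and the median was -0.22. DOT1, named for a vein pattern mutant, stood at 1.09 and 2.01 FPKM against 5.42 and 4.58 FPKM. MEE16, named for an embryo arrest mutant, stood at 2.81 and 3.19 FPKM against 7.05 and 7.29 FPKM.

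Of genes with a role in defence, RLP32, a receptor-like protein of immunity, was among the most abundant, at 16.9 and 16.1 FPKM in the controls and 40.7 and 40.5 FPKM with the CLF bait (fold 2.38). PROPEP4, a precursor of an elicitor peptide that wounded cells release, stood at 0.300 and 1.24 FPKM against 2.82 and 3.53 FPKM. Its relative PROPEP1 lay on the other side, at 14.1 and 15.2 FPKM in the controls and 5.33 and 6.10 FPKM with the CLF bait.

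Genes grouped under transport, sugar transfer and metabolism gave 6 named members with folds from 2.00 to 2.77. LTP2, a lipid transfer protein of the cuticle, was listed at 0.432 and 0.669 FPKM in the controls and at 3.04 and 3.56 FPKM with the CLF bait. UGT85A5, a sugar transferase, stood at 11.4 and 9.87 FPKM against 27.6 and 28.6 FPKM, and ABCG19, a membrane transporter, at 8.05 and 8.27 FPKM against 17.2 and 18.0 FPKM. GT72B1, which puts glucose on phenolic compounds, had a fold of 2.02. NAS4, which makes the metal chelator nicotianamine, stood at 0.746 and 0.880 FPKM against 2.503 and 2.76 FPKM, and LSU4, of a family induced by low sulfur, at 1.57 and 1.95 FPKM against 4.44 and 5.19 FPKM. LSU2, of the same family, stood at 4.01 and 2.66 FPKM against 4.71 and 8.78 FPKM, and LSU3 at 6.68 and 7.62 FPKM against 3.30 and 4.97 FPKM, which overlapped after the same rescaling. DIP2 stood at 7.93 and 11.7 FPKM against 22.2 and 23.7 FPKM. MEF1, a mitochondrial RNA editing factor, stood at 0.768 and 1.06 FPKM against 2.404 and 3.47 FPKM.

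The other 17 genes are 8 pseudogenes, 1 transcribed pseudogene, 4 long noncoding RNAs, 2 other noncoding RNAs, 1 small nuclear RNA and 1 gene, AT4G34588, without an entry in the RefSeq table. TAS2, a noncoding precursor that is cut into trans-acting small interfering RNAs, was the most abundant of them. It lies on chromosome 2 from 16539384 to 16540417 and was listed at 20.05 and 18.205 FPKM in the controls and at 74.6 and 74.5 FPKM with the CLF bait (fold 3.75). The other TAS genes were not alike in this. TAS1A stood at 46.8 and 41.4 FPKM against 61.7 and 53.0 FPKM, TAS1C at 38.2 and 41.6 FPKM against 51.5 and 47.9 FPKM, and TAS3 at 19.8 and 15.2 FPKM against 10.0 and 5.72 FPKM. Under median-of-ratios scaling TAS2 alone lay above the control without overlap, and under rescaling on protein-coding genes TAS3 no longer lay below without overlap.

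U2 small nuclear RNA is a core part of the spliceosome. U2.2 was listed at 8.53 and 7.55 FPKM in the controls and at 19.0 and 17.2 FPKM with the CLF bait. Of 20 U2 genes, only 3 could be matched, and the values are of whole loci spanning 863 bp (U2.2), 871 bp (U2.3) and 551 bp (U2.6). Both other matched U2 loci lay above the control as well: U2.3 at 153 and 157 FPKM against 363 and 350 FPKM, and U2.6, left out by the rule, at 113 and 90.4 FPKM against 561 and 593 FPKM. The share of all matched genes above the control without overlap was 40.7%. U2 genes are near-identical, so reads may be split among them and these values are uncertain. The ncRNA AT5G34871 stood at 8.40 and 8.13 FPKM against 19.7 and 16.1 FPKM.

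Among the long noncoding RNAs, AT5G66558 was listed at 0.914 and 0.984 FPKM in the controls and at 4.48 and 4.96 FPKM with the CLF bait (fold 2.93). It covers most of the protein-coding gene AT5G66560, which is also among the 121, at 5.19 and 5.93 FPKM against 13.5 and 12.3 FPKM. AT1G30282 stood at 2.62 and 2.23 FPKM against 8.90 and 9.13 FPKM, while AT1G30280, which covers 93.4% of it, stood at 1.17 and 0.997 FPKM against 5.63 and 5.49 FPKM. In both pairs the overlapping gene had the same direction, and reads of the pair cannot be told apart without the strand. AT5G59662 stood at 0.810 and 0.732 FPKM against 2.85 and 3.05 FPKM. AT5G59660, which covers 66.0% of it, did not share the direction: its groups overlapped, at 1.21 and 0.341 FPKM against 0.698 and 0.785 FPKM. AT1G05562, which lies within UGT75B1, had CLF RIP values of 6.07 and 2.39 FPKM, far apart, over control values of 1.39 and 1.34 FPKM.

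After AT3G43828, the pseudogenes were modest. AT1G20390 had a fold of 2.83 and AT4G07519 of 2.68, and the CLF RIP values of AT4G07519 were 4.68 and 2.13 FPKM. AT2G12540 was listed at 5.25 and 7.31 FPKM in the controls and at 17.2 and 16.8 FPKM with the CLF bait, and AT4G06495 at 6.24 and 6.24 FPKM against 15.4 and 15.9 FPKM. The folds of AT1G62860, AT1G63835, AT1G25430 and AT2G13975 were 2.17, 2.15, 2.08 and 2.07. AT4G34588 lies within the span of GBF6 and stood at 2.15 and 3.72 FPKM against 6.65 and 9.71 FPKM.

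**Figure D4:**
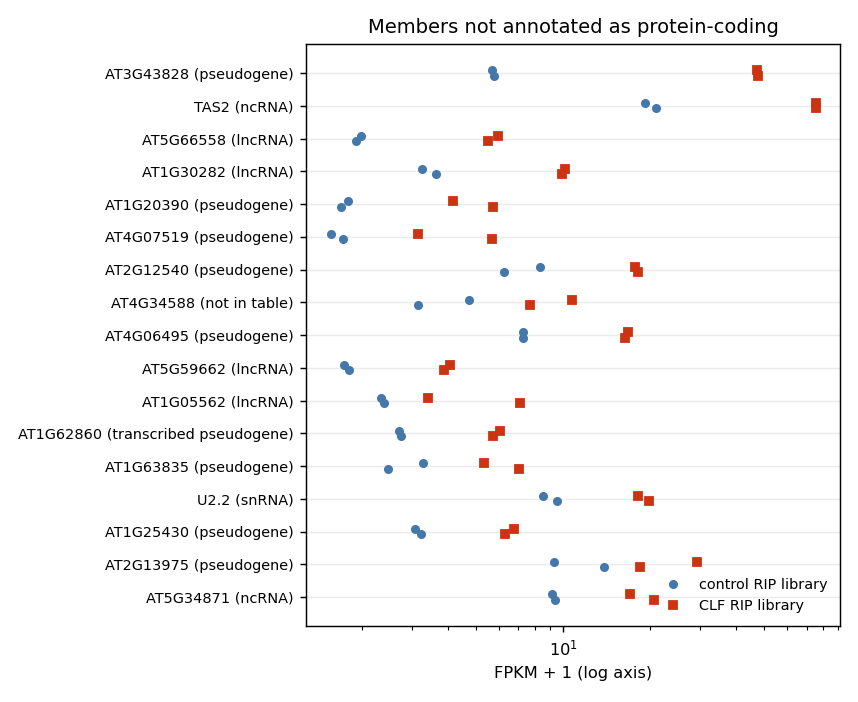
FPKM + 1 (x axis, log scale) in each of the 4 libraries for the 17 genes that are not annotated as protein-coding, ordered by fold, with control RIP libraries as blue circles and CLF RIP libraries as red squares. AT3G43828 shows the widest gap between groups, TAS2 is the most abundant, and AT4G07519 and AT1G05562 have CLF RIP libraries far apart.

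Beyond its minimum of 300 bp the rule set no span. The median span of the 121 genes was 1270 bp, and 45 of them (37.2%) spanned under 1000 bp. The other 2977 genes, which include the 6 left out, had a median of 1546 bp with 26.0% under 1000 bp. The 1453 of these that also reached a mean CLF RIP level of 2 FPKM were closer, with a median of 1332 bp and 35.2% under 1000 bp. They lay on all 5 chromosomes, with 30, 24, 15, 18 and 34 genes on chromosomes 1 to 5, where the 3098 genes were spread as 791, 540, 611, 442 and 714. Chromosome 3 thus held 12.4% of the 121 and 19.7% of the 3098, and chromosome 5 held 28.1% and 23.0%. Of the 6 genes left out by name, 3 lie on chromosome 3 (CYP94B3, LTI30 and U2.6), and with the 6 put back its share is 18 of 127, or 14.2%. Neighbours were rare: 3 pairs lay within 10 kb of each other, SAUR19 with SAUR20, AT5G66558 with AT5G66560, and AT2G41750 with AT2G41780, the last 5575 bp apart. An overlap with another annotated gene was found for 16 of 121 (13.2%), for 13.6% of the other 2977 and for 15.6% of the 1453. At least 50% of the span was covered by another gene for 13 of 121 (10.7%), for 5.37% of the 2977 and for 7.09% of the 1453. These are shares over genes, which are not independent replicates, and were not tested.

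The reads behind the values could be counted for some of the genes. For 33 of 118 genes of at least 400 bp, the FPKM of all 4 libraries came out as whole reads within 0.15, with at most 60 reads in each library. Summed over both libraries of a group, these genes had from 3 to 98 control reads and from 9 to 114 CLF RIP reads. The CLF RIP libraries were 2.31 times shallower. At such low levels the rule asks for a plain FPKM ratio near or above that number, so it largely sets that 32 of the 33 had more CLF RIP than control reads. The remaining gene, SAUR19, had as many, with 10 and 9 reads in each group. Over the 118 genes, taken as unspliced, 10 had fewer reads in the CLF RIP, among them ABCG19 and AT3G24080, whose fold was near 2 at higher levels. Among the 33, the ratio per unit of depth had a median of 3.31. Exact 95% intervals, which cover counting error only, held 1 for 1 gene, AT5G49525 (5 and 3 reads against 4 and 5), and held 2 for 24 genes. As the genes were chosen on these values, the intervals describe precision and support nothing else.

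AT5G10625 rested on 4 and 1 control reads and on 19 and 24 CLF RIP reads, a ratio per depth of 19.9 with an interval from 7.90 to 64.4. AT2G47950 rested on 2 and 2 reads against 13 and 15, a ratio of 16.2 with an interval from 5.67 to 63.6. These ratios exceed the folds given above because the added 1 FPKM weighs on low control levels. If the 118 loci of at least 400 bp were all unspliced, 23 would have under 10 reads in the lower CLF RIP library and 37 over 50, with a median of 28.3 reads. RTFL21 rested on 23 and 22 reads against 41 and 34, and SAUR20 on 13 and 17 reads against 24 and 27.

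**Figure D5:**
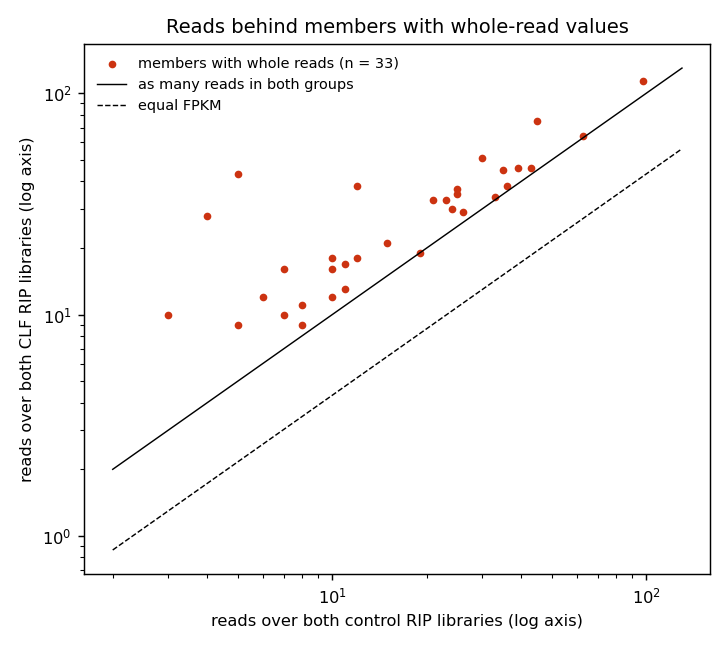
Reads summed over both control RIP libraries (x axis, log scale) against reads summed over both CLF RIP libraries (y axis, log scale) for the 33 genes whose values came out as whole reads, with a solid line for as many reads in both groups and a dashed line for equal FPKM at the lower CLF RIP depth. The rule keeps genes this low near or above the solid line, so that no point lies below it says nothing more, and AT5G10625 and AT2G47950 are the 2 points far above it at 5 and 4 control reads.

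At the threshold, the fold separated genes that were almost alike. Just inside were SAUR19 and NAS4, given above, AT4G13180 (2.01 and 2.59 FPKM against 4.72 and 6.51 FPKM) and AT1G11630 (2.15 and 1.51 FPKM against 5.42 and 3.98 FPKM). Just outside, with folds from 1.98 to 1.99, were OEP6 (66.1 and 66.9 FPKM against 130 and 135 FPKM), MAPKKK18 (0.938 and 0.290 FPKM against 2.42 and 1.99 FPKM), AT5G66580 (10.9 and 7.59 FPKM against 18.9 and 19.8 FPKM) and AT1G71910 (4.94 and 4.84 FPKM against 8.12 and 13.4 FPKM). The 1 gene that reached the fold with overlapping groups was AT3G13432, at 2.74 and 0.707 FPKM in the controls and at 1.61 and 9.68 FPKM with the CLF bait.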

How the data were processed

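The authors deposited 1 table of FPKM per locus for each of the 4 libraries. Trimmomatic and TopHat2 2.0.10 were used with TAIR10, per the submitters' processing notes (FPKM program: not given in the sources used here). Coordinates are those of the tables, counted from 1. The RefSeq table (TAIR10.1) held 120 of the 121 genes. Its table holds no sequence, so the planned promoter motifs were not analysed here.

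Folds used a pseudocount of 1 FPKM. Groups follow the labels. Since the rule used every library, no test was run. The members and lists were chosen with earlier results of these data known. Named genes were the 15 largest folds, the 8 highest levels, members of a list with its 3 genes farthest from 0, 4 genes on either side of the threshold, genes that are not protein-coding and the 3 with CLF RIP libraries farthest apart. All others, and the scalings shown for families and lists, were chosen after the values were seen.

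Relative depth came from what 1 read is worth at 75 bp (10940, 11294, 25693 and 25765 FPKM). A depth constant and a fragment length of 205 bp were fitted so that low values became whole reads. The fit was checked on simulated data. Of low values, 57.1% to 59.4% were whole reads within 0.1, with spliced genes included. Over whole-read genes that are not members, chi-square over degrees of freedom was 1.00 (552 genes) in the control pair, 1.07 (301 genes) in the CLF RIP pair and 2.16 to 2.44 across groups. For lists and families, 172 genes matched by overlap were left out because a value reached that of 1 read on 75 bp. The tools were Python 3.11.15 with numpy 2.4.6, pandas 2.3.3, matplotlib 3.10.9 and scipy 1.17.1.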

Additional observations from a re-analysis of the deposited data

How the results depend on the processing

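The rule was met by 121 genes. The number was 17 with a pseudocount of 5 FPKM, 67 after median-of-ratios scaling, 452 with protein-coding genes only and libraries rescaled to the same sum, 76 with a span of at least 1000 bp, 75 with a level of at least 5 FPKM, 15 at a fold of 3, 400 at a fold of 1.5 and 1786 with loci also matched by overlap. Leaving out 1 library gave 129 to 154 genes, which held 93 to 105 of the 121. The median log2 difference of 1.20 was 1.38 and 0.70 with pseudocounts of 0.5 and 5 FPKM, 1.099 under quantile normalization, 1.03 under median-of-ratios factors and 1.67 with protein-coding genes only, and 1.18 to 1.24 with 1 library left out. The rescaling to protein-coding genes moved the median of all genes from 0.11 to 0.46. Relative to the median of all genes, the 121 genes stood at 1.08 as deposited, 1.03 under quantile normalization and 1.02 under median-of-ratios factors. With protein-coding genes only, the 104 stood at 1.21. Of 43 named members under the 9 alternatives that act on values, 255 values moved by less than the spread of the library pairings and 115 by more. Leaving out 1 library shifts a value by less than that spread almost by construction. Those settings are among the 255, so this number is no sign of stability. Their direction was set by how the members were chosen, so its persistence is no sign of stability. The rule was met under all 9 by 16 genes, among them AT5G23240, AT3G43828, AT2G47950, AT5G10625, TAS2, HIS1-3, SAUR20, XERICO, RTFL21, UGT85A5 and RLP32, where genes that are not protein-coding were exempt from the protein-coding setting. No paired analysis was possible because the result comes from no test. With 2 libraries a group and a lower depth in the CLF RIP, low genes rest on few reads.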
